A study of Mus musculus with 12 samples.

Results

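The receptors that signal through the common gamma chain were followed across 12 single-cell RNA libraries from WT and GFI1 KO mice. The members are the 7 receptor genes Il7r, Il2ra, Il2rb, Il2rg, Il4ra, Il15ra and Il21r, chosen by name among the 33696 genes in the files. All 7 passed the filter on low counts and belonged to the 14921 genes tested. The libraries came from splenic γδ T cells sorted as CD3+ and CD4-negative, from thymic γδ T cells, and from a joint thymic sort of the DN1, DN2 and DN3 stages, which lack CD4 and CD8 and hold the precursors of T cells. The mice were adults that carried either normal Gfi1 or a Gfi1 knockout, and the thymic γδ T cells and DN cells came from the same animals. Cells of both genotypes were tagged with different hashtag antibodies and run together in 6 pools, so each sorted population has 2 WT and 2 GFI1 KO libraries. How many animals a library stands for is not given in the sources used here, and p-values measure the spread between these libraries only. Whole-library tests fitted all 12 libraries together, unless a smaller set is named. The spread of a gene was therefore shared over the 6 groups of population and genotype. A standard error or p-value from that fit is thus not the spread within the population it is given for. The values of the single libraries are printed beside the genotype tests for that reason. Lineage-positive cells, among them cells with B, myeloid or NK markers, had been depleted with magnetic beads before the sort.

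The common gamma chain, encoded by Il2rg on the X chromosome, is shared by the receptors for IL-2, IL-4, IL-7, IL-9, IL-15 and IL-21. Each cytokine adds its own chain, namely the IL-7 receptor alpha chain (Il7r), the IL-2 receptor alpha chain CD25 (Il2ra), the beta chain CD122 shared by IL-2 and IL-15 (Il2rb), and the specific chains for IL-4 (Il4ra), IL-15 (Il15ra) and IL-21 (Il21r). The chains signal through the kinases JAK1 and JAK3 and the STAT factors. In the thymus, IL-7 sustains early precursors and γδ T cells, and CD25 marks the DN2 and DN3 stages. In the periphery, IL-17-producing γδ T cells depend on IL-7, while IFN-γ-producing γδ T cells carry CD122.

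Between 6795 and 11679 cells per library were kept, with a median of 4947 to 6853 unique molecular identifiers (UMIs, 1 per captured RNA molecule) per cell. Levels are given as CPM, the UMIs of a gene scaled to a fixed library total, and Wilson intervals, where given, cover counting error only. Gfi1 RNA was not lower in the libraries labelled GFI1 KO, at 18.1 and 18.1 CPM against 11.8 and 18.0 in WT in the spleen, and at 70.6 and 56.6 CPM against 44.7 and 40.6 in the DN cells, and so gives no check of the genotype labels. The sorted γδ T cells held their defining RNA, with Trdc, the T-cell receptor δ constant gene, from 1233 to 2051 CPM where γδ T cells were sorted and from 126 to 199 CPM in the DN sort. Ptcra, the pre-T-cell receptor α chain, lay between 95.35 and 168 CPM in DN libraries and at 5.07 CPM or less in γδ T libraries. Of the γδT17 markers, Maf was at 120 and 98.7 CPM in WT and 1365 and 1425 CPM in GFI1 KO spleen, at 339 and 261 against 788 and 896 CPM in thymic γδ T cells, and at 16.5 and 15.2 against 253 and 121 CPM in DN cells. Blk, another of them, was higher in both GFI1 KO libraries than in both WT libraries of each population as well. A library's CPM sums all its cells, so a different mix of cells and a different level within a cell cannot be told apart from it. Values within marker-defined cells are given below for that reason.

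The promoters of Il7r, Il2ra and Il2rg are shown because Il2ra and Il2rg were higher in GFI1 KO cells of both γδ T populations, whereas the Il7r difference took the opposite sign in the spleen and the thymus. The windows are 300 bases long, span the start of the gene in RefSeq on GRCm38.p6 (not the build of the count files), and are given 5′ to 3′ on the strand of the gene. The windows are chr15:9529827-9530126 on the minus strand for Il7r, chr2:11642542-11642841 on the plus strand for Il2ra and chrX:101268206-101268505 on the minus strand for Il2rg. Capitals mark AATC on either strand, the core of the GFI1 binding sequence.

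Il7r: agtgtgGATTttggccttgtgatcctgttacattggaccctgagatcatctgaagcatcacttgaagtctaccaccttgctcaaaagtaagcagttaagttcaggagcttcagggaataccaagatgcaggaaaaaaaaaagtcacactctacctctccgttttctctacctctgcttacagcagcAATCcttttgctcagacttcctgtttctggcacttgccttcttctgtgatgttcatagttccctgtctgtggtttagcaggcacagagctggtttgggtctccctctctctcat

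Il2ra: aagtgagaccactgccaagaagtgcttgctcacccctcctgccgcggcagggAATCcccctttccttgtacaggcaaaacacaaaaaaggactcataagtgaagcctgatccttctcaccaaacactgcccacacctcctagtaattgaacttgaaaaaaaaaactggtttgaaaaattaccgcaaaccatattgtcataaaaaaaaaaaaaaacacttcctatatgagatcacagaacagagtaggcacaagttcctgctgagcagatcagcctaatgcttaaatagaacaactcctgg

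Il2rg: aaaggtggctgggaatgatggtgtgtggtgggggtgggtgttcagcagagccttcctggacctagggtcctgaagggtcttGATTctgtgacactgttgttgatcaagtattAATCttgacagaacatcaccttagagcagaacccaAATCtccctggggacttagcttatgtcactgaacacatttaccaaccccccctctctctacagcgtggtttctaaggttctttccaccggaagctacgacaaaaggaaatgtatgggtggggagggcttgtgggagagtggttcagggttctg

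AATC occurred 2 times in the Il7r window, 1 time in that of Il2ra, 3 times in that of Il2rg and 1 time in that of Il4ra. It occurred 1 and 2 times in the 2 windows of Il15ra, and the Il21r window held none. This short core is common, and 73.1% of all 32851 promoter windows held it. The γ-activated sequence bound by STAT factors, TTCNNNGAA, occurred once in the Il7r window and in none of the windows of Il2ra, Il2rg, Il4ra, Il15ra or Il21r, against 8.30% of all windows. Windows were matched for 6 of the 7 genes, and Il2rb was not among them.

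**Figure D1:**
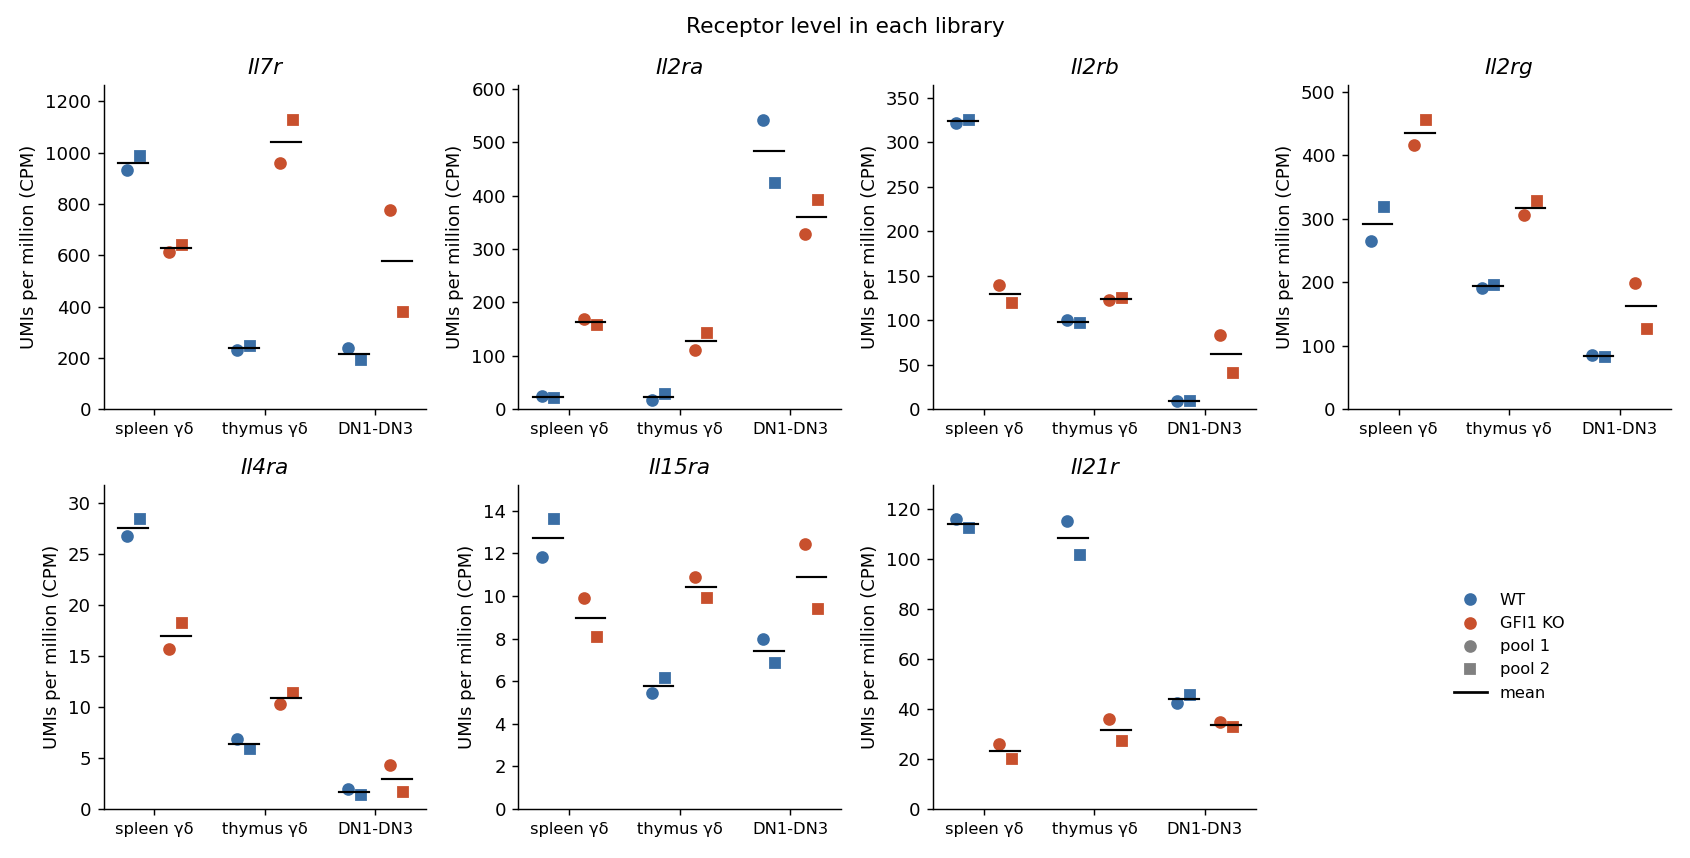
Level of each receptor (CPM, linear axis from 0) in the 12 libraries, with blue WT and orange GFI1 KO points, circles for pool 1, squares for pool 2 and a bar at the mean of 2 libraries. Il21r separates the genotypes in both γδ T populations, with all 4 GFI1 KO libraries at 35.9 CPM or less and all 4 WT libraries at 102 CPM or more.

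In splenic γδ T cells, GFI1 KO libraries held more Il2ra and Il2rg and less Il2rb, Il15ra and Il21r than WT libraries. Il2ra measured 25.3 and 21.4 CPM in WT and 170 and 158 CPM in GFI1 KO, a log2 difference of 2.91 ± 0.25 (SE, adjusted p = 8.55e-06, edgeR quasi-likelihood test over all genes). All GFI1 KO values lay far above the WT values, and the level in GFI1 KO spleen still stood below that of the DN cells. Il2rg, the shared chain, measured 264 and 319 CPM in WT and 415 and 456 CPM in GFI1 KO (log2 difference 0.67 ± 0.16, adjusted p = 0.00527), a call that was lost without WT replicate 1 (0.54, adjusted p = 0.0563). Il2rb measured 322 and 326 CPM in WT and 139.8 and 119 CPM in GFI1 KO (log2 difference −1.23 ± 0.23, adjusted p = 0.00138). The 2 WT libraries were nearly equal and far above the 2 GFI1 KO libraries. The marker list of the IFN-γ type (Tbx21, Ifng, Cd27 and Eomes, none at 0) summed to 402 and 481 CPM in WT and 58.1 and 40.3 CPM in GFI1 KO, and markers of NK cells (Ncr1, Klrb1c and Klre1, none at 0) to 80.6 and 84.8 against 10.3 and 9.58 CPM. Most of the IFN-γ sum in WT was Cd27 (281 and 330.5 against 12.05 and 16.26 CPM). Tbx21 measured 56.0 and 65.8 against 39.3 and 18.7 CPM, and Eomes 61.5 and 80.5 against 3.14 and 4.68 CPM. Ifng overlapped between genotypes (3.49 and 4.35 against 3.59 and 0.647 CPM). The part of these markers in the Il2rb difference was not tested.

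Il21r showed the largest fall of the 7 genes in the spleen. It measured 116 and 113 CPM in WT and 26.0 and 20.2 CPM in GFI1 KO (log2 difference −2.21 ± 0.15, adjusted p = 1.44e-06). Il15ra, which presents IL-15 to the beta and gamma chains, was a low transcript at 11.8 and 13.6 CPM in WT and 9.89 and 8.06 CPM in GFI1 KO (log2 difference −0.41 ± 0.15, adjusted p = 0.0443). With the pool as a block that call was lost (adjusted p = 0.0537), as it was without WT replicate 2 (−0.36) or GFI1 KO replicate 2 (−0.24). Il7r measured 933 and 987 CPM in WT and 614 and 641 CPM in GFI1 KO, and Il4ra 26.8 and 28.4 against 15.7 and 18.2 CPM. The groups did not overlap for either gene, yet neither passed the test on all 12 libraries (log2 difference −0.52 ± 0.24 with adjusted p = 0.096 for Il7r, and −0.61 ± 0.28 with adjusted p = 0.0931 for Il4ra). With the pool as a block both passed, Il7r with an adjusted p of 0.0289 and Il4ra with one of 0.0228. Fitted on these 4 libraries alone they passed as well (adjusted p = 0.000578 and 0.000904), and Il7r passed by DESeq2 (adjusted p = 0.0417). Thus 5 of 7 receptors were called, 2 higher and 3 lower, where 54.7% of all genes tested were called.

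In thymic γδ T cells, 6 of 7 receptors were called, 5 higher and only Il21r lower in GFI1 KO, where 49.7% of all genes were called. Il7r measured 229.7 and 246 CPM in WT and 959 and 1129 CPM in GFI1 KO, a log2 difference of 2.26 ± 0.25 (adjusted p = 6.91e-05). Both GFI1 KO libraries stood far above both WT libraries, the reverse of the order seen in the spleen. Il2ra measured 17.5 and 28.4 CPM in WT and 111 and 144 CPM in GFI1 KO (log2 difference 2.597 ± 0.25, adjusted p = 2.87e-05). Il2rg measured 191 and 195 CPM in WT and 305 and 329 CPM in GFI1 KO (log2 difference 0.84 ± 0.16, adjusted p = 0.00175). Both differences went the same way as in the spleen. Several marker lists were lower in the same GFI1 KO libraries, and none of those given here had a gene at 0. Cd24a, the marker of immature γδ T cells, measured 46.6 and 53.2 CPM in WT and 18.0 and 12.8 CPM in GFI1 KO, and the 4 markers of DN2 and DN3 cells summed to 130 and 157 against 35.8 and 24.0 CPM. The 6 markers of αβ T cells summed to 3175 and 3262 against 1531 and 1303 CPM, and the 4 of the IFN-γ type to 368 and 329.5 against 123 and 76.6 CPM. Trbc1 (1334 and 1288 against 565 and 472 CPM) and Trbc2 (1771 and 1909 against 912 and 776 CPM) made up most of the αβ T sum. Trac measured 62.85 and 54.27 against 51.24 and 51.49 CPM. Most of the IFN-γ sum was Cd27 (352 and 317 against 115 and 72.1 CPM). Tbx21 went the other way, at 2.43 and 2.02 CPM in WT and 6.59 and 3.28 CPM in GFI1 KO. Their part in the receptor differences was not tested.

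The IL-15 and IL-4 chains of the thymic γδ T cells also differed. Il15ra measured 5.43 and 6.13 CPM in WT and 10.9 and 9.92 CPM in GFI1 KO (log2 difference 0.97 ± 0.16, adjusted p = 0.000555). Il4ra measured 6.89 and 5.90 CPM in WT and 10.3 and 11.4 CPM in GFI1 KO (log2 difference 0.89 ± 0.29, adjusted p = 0.0282). The Il4ra call was lost on leaving out any 1 of the 4 thymic γδ T libraries, with differences of 0.78 to 1.01, and with no filter on low counts (adjusted p = 0.0644). Il2rb measured 100.3 and 96.9 CPM in WT and 123 and 125 CPM in GFI1 KO and did not pass (log2 difference 0.45 ± 0.23, adjusted p = 0.13), but passed when fitted on these 4 libraries alone (0.45, adjusted p = 0.00247). Il21r measured 115 and 102 CPM in WT and 35.9 and 27.4 CPM in GFI1 KO (log2 difference −1.66 ± 0.15, adjusted p = 1.60e-05), a fall as in the spleen.

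In DN cells, 4 of 7 receptors were called, all higher in GFI1 KO, where 23.0% of all genes were called. Il2rb stood out in size, with 9.74 and 8.84 CPM in WT and 83.4 and 40.6 CPM in GFI1 KO (log2 difference 2.72 ± 0.25, adjusted p = 9.52e-05). Il7r measured 239 and 193 CPM in WT and 778 and 379 CPM in GFI1 KO (log2 difference 1.41 ± 0.25, adjusted p = 0.00301). For both genes GFI1 KO replicate 1 stood above GFI1 KO replicate 2, and the difference without replicate 1 was 2.17 for Il2rb and 0.86 for Il7r. The NK markers moved with Il2rb in these libraries and summed to 9.21 and 7.11 CPM in WT and 29.9 and 16.5 CPM in GFI1 KO (none at 0), and Tbx21 measured 2.65 and 2.21 against 17.6 and 6.65 CPM, while the whole list of the IFN-γ type summed to 117 and 114 against 132 and 128 CPM. Their part in the difference was not tested. Il2rg measured 85.2 and 82.1 CPM in WT and 199 and 126 CPM in GFI1 KO (log2 difference 0.95 ± 0.16, adjusted p = 0.00257). Il15ra measured 7.99 and 6.85 CPM in WT and 12.4 and 9.37 CPM in GFI1 KO (log2 difference 0.55 ± 0.15, adjusted p = 0.0283), a call lost without any 1 of WT replicate 1 (0.58), WT replicate 2 (0.48) or GFI1 KO replicate 1 (0.38) and when fitted on the 4 DN libraries alone (adjusted p = 0.0744).

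The remaining receptors of the DN cells did not pass. Il2ra, the marker of the DN2 and DN3 stages, was at its highest here, at 543 and 424 CPM in WT and 328 and 392 CPM in GFI1 KO (log2 difference −0.42 ± 0.23, adjusted p = 0.227). Il21r measured 42.5 and 45.7 CPM in WT and 34.96 and 32.66 CPM in GFI1 KO (log2 difference −0.39 ± 0.14, adjusted p = 0.0816), and Il4ra 1.97 and 1.40 against 4.31 and 1.67 CPM (log2 difference 0.80 ± 0.33, adjusted p = 0.112). Both passed with the pool as a block, Il21r with an adjusted p of 0.0316 and Il4ra with one of 0.0488. Without GFI1 KO replicate 2 the Il4ra difference was 1.27 and called, and without GFI1 KO replicate 1 it was 0.04.

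**Figure D2:**
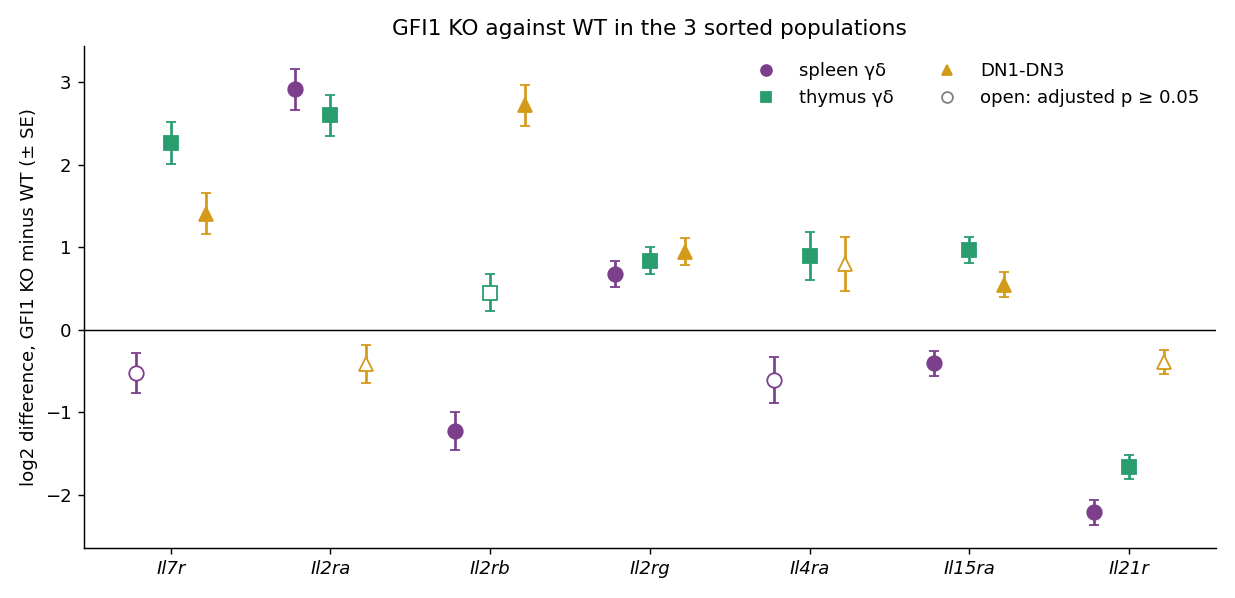
Log2 difference of GFI1 KO minus WT with its standard error for each receptor, in splenic γδ T cells (circles), thymic γδ T cells (squares) and DN1-DN3 cells (triangles), with open symbols for an adjusted p of 0.05 or more. Il7r stands at −0.52 in the spleen against 2.26 in the thymic γδ T cells, and Il2rb at −1.23 in the spleen against 2.72 in the DN cells.

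The size of the genotype difference depended on the population for several receptors. Between splenic and thymic γδ T cells, the difference of the KO-minus-WT differences was called for Il7r (−2.78 ± 0.35 log2, adjusted p = 0.000445), Il2rb (−1.68 ± 0.32, adjusted p = 0.00443), Il15ra (−1.38 ± 0.22, adjusted p = 0.0014) and Il4ra (−1.50 ± 0.41, adjusted p = 0.021), all lower in the spleen. The Il4ra call was lost on leaving out any 1 of 6 of the 8 libraries. In all, 4 of 7 receptors were called, where 29.6% of all genes were called. For Il2ra (0.31, adjusted p = 0.517) and Il2rg (−0.16, adjusted p = 0.634) the test did not pass. Il21r (−0.55, adjusted p = 0.0666) passed with the pool as a block (adjusted p = 0.0233), with no filter on low counts (adjusted p = 0.0446) and without splenic GFI1 KO replicate 1 (−0.78) or thymic GFI1 KO replicate 2 (−0.70). Xist, an RNA of female cells, was at 0.374 CPM or less in the splenic libraries and between 739 and 1600 CPM in the thymic ones. Sex of the animals thus differed along with organ in this and every other fit of spleen against thymus. Cells with male sex-linked RNA were found in both organs, and their levels are given below.

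Each thymic library held both cells with female and cells with male sex-linked RNA. A single animal would not hold both, so each of these libraries may stand for several animals, whose number is not given in the sources used here. Cells with Xist and no Ddx3y, a gene of the Y chromosome, made up 65.0% and 55.8% of WT and 84.6% and 68.1% of GFI1 KO DN cells, and 61.5% and 48.7% of WT and 51.2% and 69.0% of GFI1 KO thymic γδ T cells. Cells with Ddx3y and no Xist made up 2.99% to 18.3% of each thymic library. Cells with both RNAs made up 2.06% to 4.93%. In GFI1 KO replicate 1 of the DN cells they made up 2.79%, beside 2.99% with Ddx3y only. The part of RNA from other cells in these classes was not tested. The classes with Xist only and with Ddx3y only were formed after the Xist values had been seen. In thymic γδ T cells with Ddx3y only, Il7r measured 239 and 204 CPM in WT and 1027 and 1093 CPM in GFI1 KO, and in those with Xist only 206 and 270 against 900 and 1151 CPM. Il2ra measured 15.6 and 31.8 against 193 and 121 CPM with Ddx3y only, and 18.2 and 28.1 against 63.7 and 154 CPM with Xist only. Both genes thus lay higher in GFI1 KO in either class. Il4ra did not separate the genotypes in the Xist class, at 7.03 and 6.20 CPM in WT and 6.90 and 12.3 CPM in GFI1 KO. In DN cells, Il2rb measured 6.79 and 5.14 against 24.9 and 48.7 CPM with Ddx3y only, and 8.56 and 8.75 against 85.9 and 36.2 CPM with Xist only. GFI1 KO replicate 1 thus stood above replicate 2 in the Xist class alone. The Ddx3y class was small there, with 209 and 449 DN cells in GFI1 KO that held 54 and 180 Il2rb UMIs. The part of sex in the genotype differences of whole thymic libraries was not tested. Splenic cells with Ddx3y only held 887 and 966 CPM of Il7r in WT and 602 and 641 CPM in GFI1 KO. Their Il2rb measured 327 and 335 against 142 and 118 CPM, and that of thymic γδ T cells with Ddx3y only 92.9 and 72.6 against 132 and 127 CPM. Il4ra and Il15ra of this class were also lower in GFI1 KO in the spleen and higher in thymic γδ T cells. The difference between organs within this class was not tested.

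Between thymic γδ T cells and DN cells, 3 of 7 receptors were called, where 21.9% of all genes were called. The genotype difference was higher in thymic γδ T cells for Il2ra (3.01 ± 0.34 log2, adjusted p = 0.000446) and lower for Il2rb (−2.27 ± 0.33, adjusted p = 0.00163) and Il21r (−1.27 ± 0.20, adjusted p = 0.00232). Il7r (0.85, adjusted p = 0.108) passed with the pool as a block (adjusted p = 0.0297) and without DN GFI1 KO replicate 1 (1.33, adjusted p = 0.000477), and lay at the threshold by DESeq2 (adjusted p = 0.0498). Il2rg (−0.11), Il4ra (0.10) and Il15ra (0.42) did not pass, though Il4ra did without DN GFI1 KO replicate 1 (0.79, adjusted p = 0.0429).

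In WT, 5 of 7 receptors were called higher in splenic than in thymic γδ T cells, where 48.8% of all genes were called in either direction. The log2 difference of spleen minus thymus was 2.19 for Il4ra (adjusted p = 0.00025), 2.09 for Il7r (adjusted p = 0.000122), 1.79 for Il2rb (adjusted p = 0.000202), 1.22 for Il15ra (adjusted p = 0.000151) and 0.67 for Il2rg (adjusted p = 0.00672). Il2ra (0.10) and Il21r (0.15) did not pass. In GFI1 KO, only Il2rg was called (0.51, adjusted p = 0.0321), where 36.6% of all genes were called. That call was lost without any 1 of the 4 libraries, with differences of 0.41 to 0.60. Il2rg was also not called without the 5% deepest cells (adjusted p = 0.0554). Il7r, at −0.69, lay at the threshold with an adjusted p of 0.05 and passed with RLE normalization, by DESeq2, without the 5% deepest cells or fitted on these 4 libraries alone, where Il4ra passed too (0.69, adjusted p = 0.00713). Il21r passed with no filter on low counts (−0.41, adjusted p = 0.0327) and without splenic replicate 1 (−0.62) or thymic replicate 2 (−0.55).

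In WT, thymic γδ T cells held less Il2ra (−4.37 log2, adjusted p = 2.70e-06) and more Il2rb (3.43, adjusted p = 7.84e-06), Il4ra (1.95, adjusted p = 0.000828), Il21r (1.32, adjusted p = 6.51e-05) and Il2rg (1.23, adjusted p = 0.000211) than the DN cells, 5 of 7 receptors where 47.2% of all genes were called. Fitted on these libraries alone, Il15ra was called lower as well (−0.33, adjusted p = 0.0355). In GFI1 KO, 5 of 7 were called as well, where 57.3% of all genes were called. Il2ra was lower in the γδ T cells (−1.36, adjusted p = 0.000868), and Il4ra (2.04), Il2rb (1.16), Il2rg (1.121) and Il7r (1.02) were higher, with adjusted p-values of 0.00536 or less. With only these libraries fitted, the Il7r difference of GFI1 KO no longer passed (adjusted p = 0.0705). Il21r, at 0.04, did not pass in GFI1 KO. Each sorted population was run in its own pools, so population and pool cannot be told apart where levels are compared between populations.

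The order of the 6 groups differed between receptors. Il7r was highest in GFI1 KO thymic γδ T cells (1044 ± 121 CPM, SD, n = 2) and in WT spleen (960.1 ± 38.0), 2 groups whose libraries overlapped, and lowest in WT thymic γδ T cells (238 ± 11.7) and WT DN cells (216 ± 32.5), which overlapped too. Il2rb ran from WT spleen (324 ± 2.39) through GFI1 KO spleen (129.5 ± 14.6) and GFI1 KO thymic γδ T cells (124 ± 1.43), which overlapped, down to WT DN cells (9.29 ± 0.63). Il2ra ran from WT DN cells (483 ± 83.8) to WT spleen (23.3 ± 2.75) and WT thymic γδ T cells (23.0 ± 7.72), which overlapped. Il21r was highest in the 2 WT γδ T groups (114 ± 2.44 and 109 ± 9.44), which overlapped, and lowest in GFI1 KO spleen (23.1 ± 4.13).

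The share of cells with a UMI was compared at a fixed depth, with each cell reduced to 2000 UMIs and shallower cells, 1.57% to 10.7% of a library, left out. With 2 libraries against 2, an exact permutation test (two-sided) cannot go below p = 0.33, so the shares carry no test of their own. In the spleen, the share of cells with Il7r overlapped between genotypes at this depth, at 61.0% and 63.9% in WT and 61.3% and 64.6% in GFI1 KO. The share with at least 3 Il7r UMIs was 29.5% and 30.5% in WT and 16.3% and 17.5% in GFI1 KO. This second cut was added after values were seen. The order of the genotypes in the first share turned with the depth. At 1000 UMIs it averaged 47.3% in WT and 42.7% in GFI1 KO, at 4000 UMIs 75.7% and 80.7%, and before thinning 73.8% and 86.5%, without overlap at any of these. The share with at least 1 UMI therefore gives no stable order for splenic Il7r.

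In thymic γδ T cells, the thinned share with Il7r was 26.5% and 28.5% in WT and 73.9% and 80.6% in GFI1 KO, against unthinned means of 48.1% and 89.5%. Il2ra was found in 2.76% and 3.81% of WT and 19.8% and 24.4% of GFI1 KO cells. Both receptors were found in a larger share of cells in each GFI1 KO library than in either WT library. The Il2rb shares of the thymic γδ T cells differed in direction. Its share of cells with at least 1 UMI was 15.3% and 16.1% in WT and 21.3% and 21.8% in GFI1 KO, while its share with at least 3 UMIs was 2.37% and 2.12% in WT and 0.523% and 0.420% in GFI1 KO. Il21r was found in 20.7% and 19.1% of WT and 5.82% and 4.53% of GFI1 KO thymic γδ T cells, and in 20.4% and 19.6% against 4.79% and 3.86% in the spleen.

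**Figure D3:**
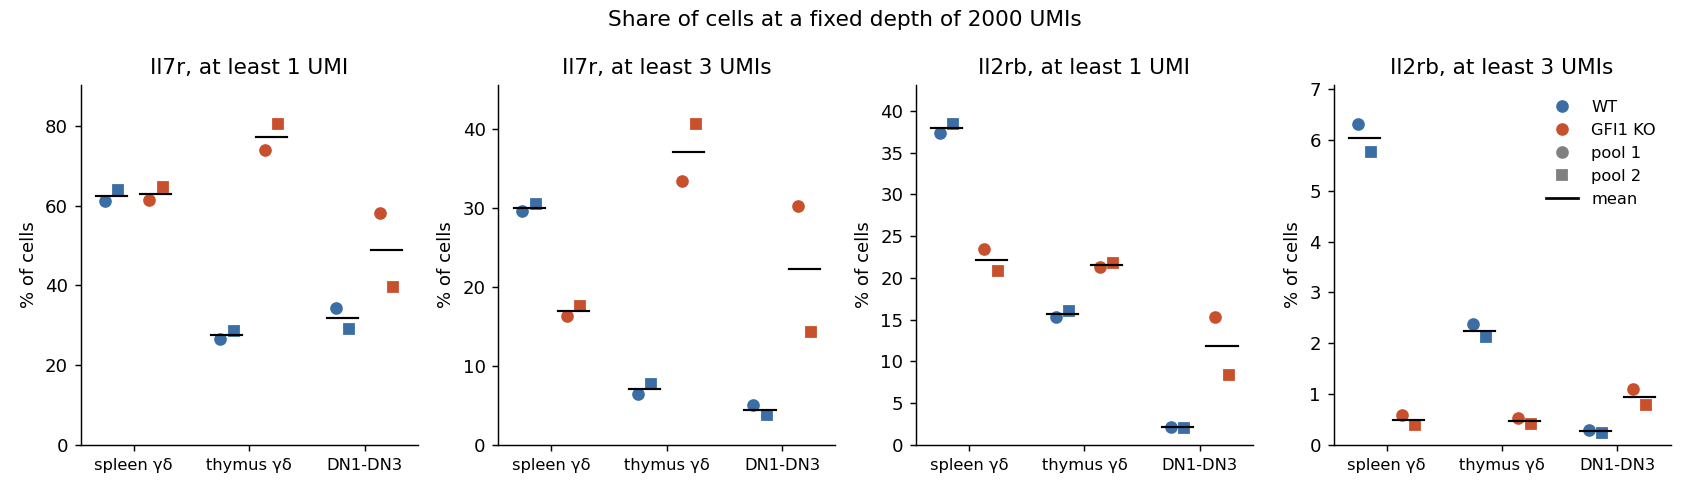
Percent of cells with at least 1 or at least 3 UMIs of Il7r and Il2rb after every cell was reduced to 2000 UMIs, by population and genotype, with 1 point per library and a bar at the mean. In the spleen the Il7r points of both genotypes overlap at 61.0% to 64.6% for at least 1 UMI and separate, 29.5% and 30.5% in WT from 16.3% and 17.5% in GFI1 KO, for at least 3.

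Immature thymic γδ T cells, taken as cells with at least 3 UMIs of Cd24a, held 109 and 117 CPM of Il7r in WT and 156 and 126 CPM in GFI1 KO. Cells without Cd24a held 286 and 323 CPM in WT and 1041 and 1207 CPM in GFI1 KO. The immature class was small, with 304 and 408 cells in WT and 72 and 50 in GFI1 KO, and deep, with median depths of 13968 to 21998 UMIs. Among DN cells, those with Ptcra held 174 ± 31.4 CPM of Il7r in WT and 237 ± 80.9 CPM in GFI1 KO (SD, n = 2).

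Trgv6 encodes the Vγ6 chain, and most γδ T cells that make IL-17 carry either Vγ6 or Vγ4. Cells with at least 1 Trgv6 UMI numbered 403 and 528 in WT and 4939 and 7529 in GFI1 KO spleen, and 154 and 200 in WT and 3149 and 3930 in GFI1 KO thymic γδ T cells. Only 162 and 167 of the splenic and 39 and 41 of the thymic WT cells held 2 or more. The γδ T libraries held 0 to 2 B-type cells each (at least 2 UMIs of Cd79a and 1 of Ms4a1), too few to measure the Trgv6 share that free RNA gives, so its part in the WT classes was not tested. In the spleen, such cells held less Il7r in GFI1 KO, at 578 and 625 CPM against 1358 and 1492 CPM in WT (log2 difference −1.27 ± 0.13, adjusted p = 0.000209). They also held less Il21r (−1.52 ± 0.23, adjusted p = 0.00294) and Il2rb (−0.47 ± 0.14, adjusted p = 0.0387) and more Il2ra (0.94 ± 0.15, adjusted p = 0.00215) and Il2rg (0.42 ± 0.12, adjusted p = 0.0345). That was 5 of 7 receptors where 22.1% of all genes were called. The Il2rb call was lost without GFI1 KO replicate 2 (−0.33) or WT replicate 2 (−0.31) and the Il2rg call without GFI1 KO replicate 1 (0.44) or 2 (0.39). Without the 5% deepest cells neither was called, and where 2 Trgv6 UMIs were asked for, Il2rb (−0.30) and Il21r (−0.81) were not.

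Splenic cells without Trgv6 gave 7 of 7 calls, where 57.1% of all genes were called. Il2ra (3.02) and Il2rg (0.62) were higher and Il21r (−2.12), Il2rb (−1.22), Il4ra (−0.64), Il15ra (−0.58) and Il7r (−0.40) lower in GFI1 KO, with adjusted p-values of 0.0263 or less. The Il15ra call was lost without GFI1 KO replicate 2 (−0.29) or WT replicate 2 (−0.49). In WT, Il2ra measured 99.8 and 77.4 CPM in cells with Trgv6 and 20.1 and 17.7 CPM in cells without, and in GFI1 KO 177 and 165 against 153.8 and 142 CPM. A cell with no Trgv6 UMI can still be a Vγ6 cell, as the paper states that 3′ sequencing captures variable chains poorly. The paper also placed nearly all GFI1 KO splenic γδ T cells in Vγ6-associated clusters. The class without Trgv6 is thus no measure of Vγ6-negative cells and may hold other cell types in GFI1 KO than in WT. A change in makeup and a change in level within a cell type cannot be told apart here.

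In the thymus, cells with Trgv6 were called for 7 of 7 receptors, where 41.9% of all genes were called. The paper found its thymic Trgv6 cluster in GFI1 KO mice only, so the WT and GFI1 KO cells of this class may differ in cell type. Il2ra (2.74), Il7r (1.48), Il4ra (1.01), Il15ra (0.83), Il2rg (0.81) and Il2rb (0.49) were higher and Il21r (−2.59) lower in GFI1 KO, with adjusted p-values of 0.0288 or less. Il7r measured 383 and 526 CPM in WT and 1111 and 1277 CPM in GFI1 KO in these cells. Without WT replicate 2 the Il2rb difference was 0.31 and no longer called, and Il15ra (0.73 to 0.94) was lost on leaving out either WT library or GFI1 KO replicate 1. With 2 Trgv6 UMIs asked for, Il4ra (0.23) and Il15ra (0.54) were not called, nor were they by DESeq2 (adjusted p = 0.0586 and 0.159). Thymic cells without Trgv6 gave 6 of 7 calls, all but Il4ra (0.39, adjusted p = 0.199), where 42.4% of all genes were called. Il7r (2.04), Il2ra (2.00), Il15ra (0.72), Il2rg (0.68) and Il2rb (0.33) were higher and Il21r (−1.15) lower. Without WT replicate 1, Il2ra (1.69), Il2rb (0.34) and Il15ra (0.63) lost their calls, without WT replicate 2 Il2rb (0.30) and Il15ra (0.81) did, and Il2ra was no longer called without GFI1 KO replicate 1 (2.35) or 2 (1.52) or with no filter on low counts either. Il4ra was called without GFI1 KO replicate 1 (0.66).

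Within GFI1 KO, splenic cells with Trgv6 held less Il7r than thymic ones (−0.98 ± 0.10 log2, adjusted p = 0.000586) and more Il2rg (0.34 ± 0.08, adjusted p = 0.017), 2 of 7 receptors where 28.4% of all genes were called. Here too sex of the animals differed along with organ, and cells with Trgv6 were not split by sex-linked genes. Without splenic replicate 2 or thymic replicate 1 the Il2rg call was lost (0.32 and 0.29). Il21r passed with no filter on low counts (0.35, adjusted p = 0.0249). Within WT spleen, cells with Trgv6 held more Il2ra (2.25, adjusted p = 0.00026) and Il7r (0.64, adjusted p = 0.0102) and less Il2rb (−0.94, adjusted p = 0.00242), Il21r (−0.93, adjusted p = 0.0131) and Il4ra (−0.66, adjusted p = 0.0168) than cells without, 5 of 7 receptors where 18.2% of all genes were called. Without the Trgv6-negative cells of WT replicate 2, the Il7r and Il4ra calls were lost (0.67 and −0.62), and without those of WT replicate 1 the Il7r call was (0.62).

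Within GFI1 KO spleen, 0 of 7 receptors were called between cells with and without Trgv6 by edgeR or by DESeq2, where 0.00817% of all genes (1 of 12238) were called by edgeR, 16 to 116 without 1 of the 4 class sums, and 62 by DESeq2, and 1 receptor, Il7r, had an unadjusted p under 0.05. The 2 classes come from the same libraries, and with the library pair as a block 4 receptors were called where 8.81% of all genes (1078 of 12238) were, Il7r (−0.20, adjusted p = 0.00269), Il2ra (0.20, adjusted p = 0.000509), Il2rb (−0.17, adjusted p = 0.00174) and Il21r (−0.32, adjusted p = 0.00494). The corresponding WT differences are given above, and the difference between genotypes was not tested.

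**Figure D4:**
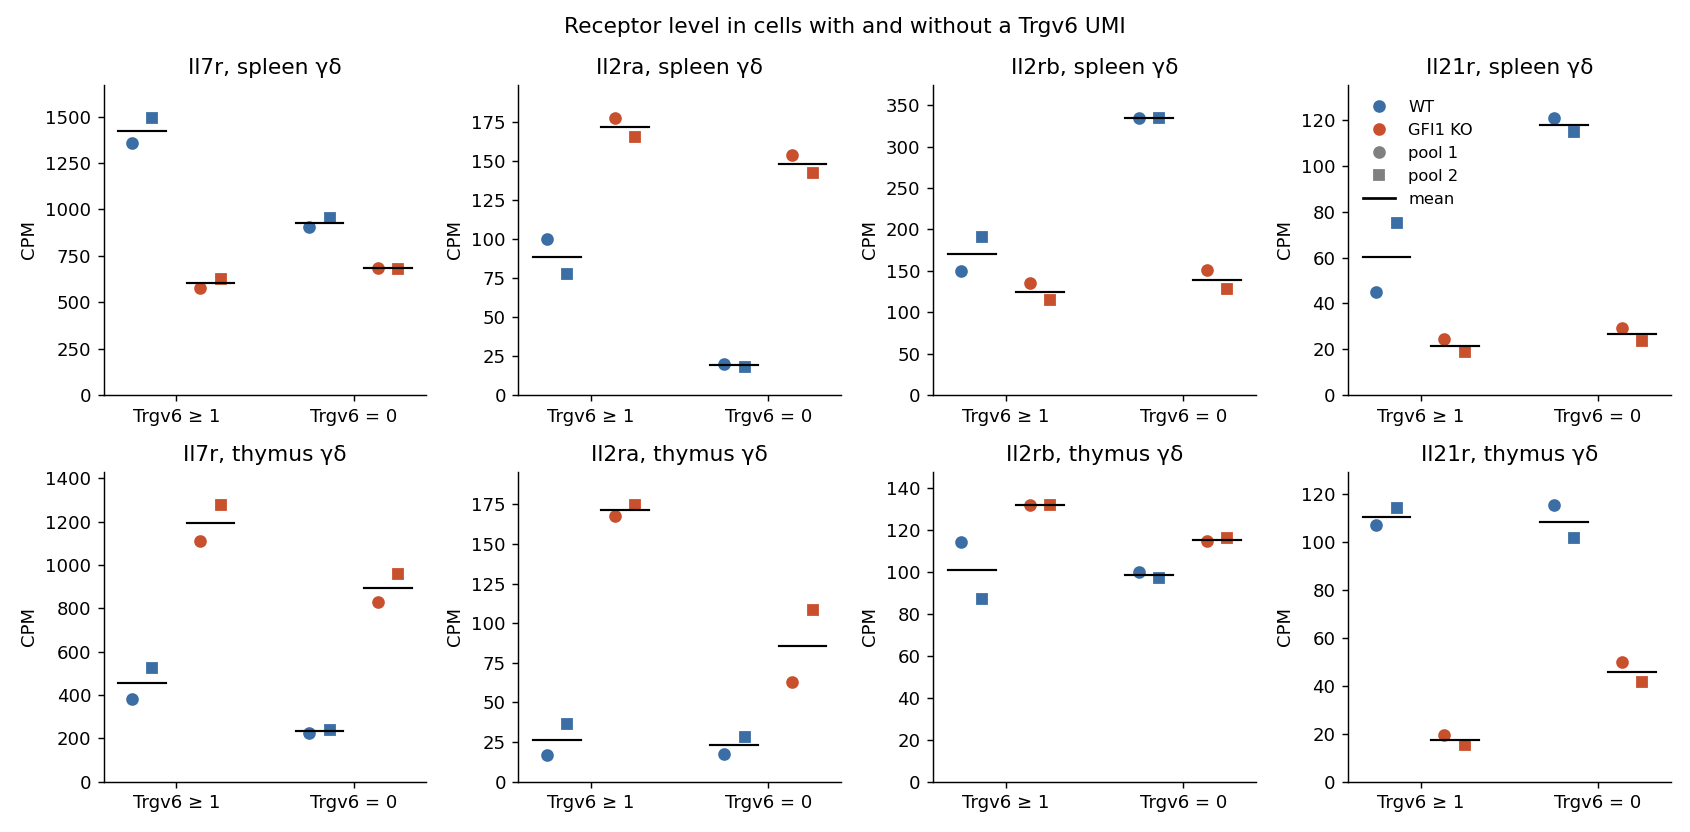
CPM of Il7r, Il2ra, Il2rb and Il21r in cells with at least 1 Trgv6 UMI and in cells with none, for splenic (top) and thymic (bottom) γδ T cells, with 1 point per library and a bar at the mean. In Trgv6-positive cells, Il7r is at 1358 and 1492 CPM in WT against 578 and 625 CPM in GFI1 KO in the spleen, and at 383 and 526 against 1111 and 1277 CPM in the thymus.

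Most Il2rb UMIs of the DN sort came from cells outside the Ptcra-positive class, which held 78 of 602 and 67 of 551 in WT and 293 of 3891 and 276 of 2284 in GFI1 KO. Cells with Trac, the α chain constant gene, but no Ptcra numbered 349 and 358 in WT and 2233 and 1180 in GFI1 KO. This class was added after its values were seen. Its Il2rb level was 135 and 123 CPM in WT and 216 and 221 CPM in GFI1 KO, and its Il7r level 818 and 695 CPM in WT and 1617 and 1382 CPM in GFI1 KO. These cells were more frequent in GFI1 KO replicate 1, the library with the higher Il7r and Il2rb, and Trac over the whole library was at 154 and 65.6 CPM in GFI1 KO against 18.8 and 20.7 CPM in WT. The whole αβ T list went the other way, at 1989 and 2029 CPM in GFI1 KO against 2082 and 2160 CPM in WT. Trbc1 measured 563 and 686 against 724 and 771 CPM, Trbc2 1262 and 1271 against 1331 and 1357 CPM, and Cd4, Cd8a and Cd8b1 overlapped between genotypes. The part of these cells in the differences of the DN sort was not tested.

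In DN cells with Ptcra, 3 of 7 receptors were called, where 13.3% of all genes were called. Il2rb (2.46 ± 0.27, adjusted p = 0.00104) and Il2rg (0.56 ± 0.11, adjusted p = 0.0136) were higher and Il21r (−0.51 ± 0.10, adjusted p = 0.0127) lower in GFI1 KO. With the pool as a block, which moved the count of all genes called from 1736 to 3909 (30.1%), Il7r (0.42, adjusted p = 0.00655) and Il15ra (0.61, adjusted p = 0.00441) passed as well. Both also passed without GFI1 KO replicate 2 (0.71 and 0.84), and Il15ra with no filter on low counts, no cell filter or 2 Ptcra UMIs asked for. Without WT replicate 2 only Il2rb was called, and without WT replicate 1 Il2rg (0.56) was not. Il2rb was rare there, in 0.606% and 0.461% of WT and 3.08% and 1.66% of GFI1 KO cells after thinning. B-type cells, which should lack Il2rb, were few in the DN libraries. None of 5 and 3 such cells in WT held Il2rb, nor did any of 10 in GFI1 KO replicate 1, which allows a share of up to 30%. In GFI1 KO replicate 2, 4 of 38 held it, or 10.5% (95% Wilson interval 4.17% to 24.1%) at a median depth of 10775 UMIs, against 4.18% of the Ptcra-positive cells at 6801 UMIs. These cells are too few and too deep to set a background for the Il2rb share of the Ptcra-positive cells, and the part of free RNA in it was not tested. Il7r was found in 1 of 5 and 2 of 3 B-type cells in WT. In GFI1 KO it was found in 0 of 10 in replicate 1 and in 4 of the same 38 cells in replicate 2. Among all cells of GFI1 KO replicate 2 it stood at 62.7% at 5792 UMIs.

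For pairs of receptor chains, the share of cells with RNA of both chains was set beside the product of the 2 single shares. In the spleen, the share with Il2rb and Il2rg was 0.988 to 1.00 times the product in the 4 libraries. The share of splenic WT cells with both Il2ra and Il2rb was 1.05% and 0.941%, or 0.610 and 0.662 times the product, and thymic γδ T cells of WT gave 0.666 and 0.698 times. Without thinning the ratios were 0.791 and 0.858 in WT spleen and 0.945 and 0.884 in the WT thymus, nearer to the product. In GFI1 KO the ratio was 0.985 and 1.02 in the spleen and 1.07 and 1.09 in the thymus, and the share with both was 6.20% and 5.46% in the spleen and 4.52% and 5.78% in the thymus. In DN cells of both genotypes the ratio was lower, at 0.358 and 0.404 times the product in WT and 0.505 and 0.350 in GFI1 KO. Without thinning these ratios were 0.571 and 0.492 in WT and 0.710 and 0.520 in GFI1 KO.

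Il7r and Il2ra were found together more often than the product in WT γδ T cells, at 1.32 and 1.19 times in the spleen and 1.72 and 1.58 times in the thymus. In GFI1 KO the ratios were 1.04 and 1.03 in the spleen and 1.08 and 1.07 in the thymus. DN cells gave 0.771 and 0.788 in GFI1 KO and 1.02 and 1.04 in WT, and without thinning 0.942 and 0.952 in GFI1 KO and 1.03 and 1.04 in WT. Il7r and Il2rb were found together more often in DN cells, at 2.27 and 2.50 times in WT and 1.52 and 2.17 times in GFI1 KO, and without thinning at 1.36 and 1.41 times in WT and 1.30 and 1.49 times in GFI1 KO. Over the 6 pairs and 12 libraries, 54 of 72 combinations lay above the product, and 62 without thinning. Depth and cell mixture enter these ratios, and they are given as a description.

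**Figure D5:**
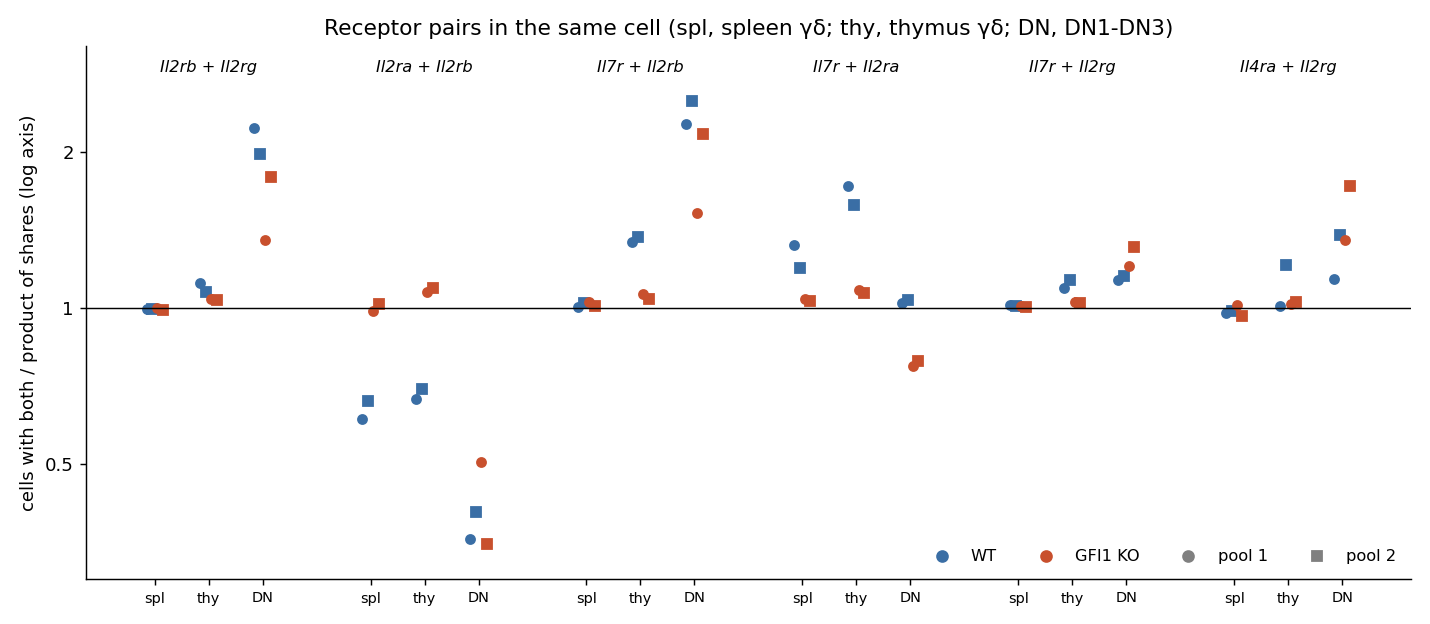
Share of cells with UMIs of both receptor chains divided by the product of the single shares (log axis, line at 1), for 6 pairs in each population and library at 2000 UMIs per cell. The Il2ra and Il2rb pair lies at 0.610 to 0.698 in the WT γδ T libraries and at 0.985 to 1.09 in the GFI1 KO ones.

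The rest of the pathway was followed in a list of 25 genes, of which 24 were tested on the whole libraries. In the spleen, 7 were higher and 10 lower in GFI1 KO, with a median log2 difference of −0.31 (0.0033 over all genes), 17 of 24 called where 54.7% of all genes were. The largest called were Socs2 (3.78), a feedback inhibitor induced by STAT factors, Il13ra1 (−3.68, at 0.622 CPM or less in every library), Bcl2 (−3.18), a survival factor, Socs3 (−3.18), another feedback inhibitor, Il4 (−2.87) and Cish (2.73), a STAT5 target. In thymic γδ T cells, 12 were higher and 4 lower, with a median of 0.72 (−0.0017 over all genes), 16 of 24 called where 49.7% of all genes were, led by Socs2 (4.87), Cish (3.40), Bcl2 (−1.92), Socs1 (1.71), Il4 (1.66) and Il13ra1 (−1.46). In DN cells, 7 were higher and 1 lower, with a median of 0.47 (−0.019 over all genes), 8 of 24 called where 23.0% of all genes were, with Il4 (2.28), Il15 (1.98) and Cish (1.204) among those past a difference of 1.

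Several of these calls rested on single libraries. The Il4 call was lost with no filter on low counts in all 3 populations. In thymic γδ T cells it was also lost without either WT library or GFI1 KO replicate 1, which took the difference to 0.78, and in DN cells without either WT library or GFI1 KO replicate 1 (1.496). In the spleen it was lost without WT replicate 1 (−2.31) or GFI1 KO replicate 2 (−2.33). The thymic Il13ra1 call was lost by DESeq2 and without any 1 of WT replicate 2 or the GFI1 KO libraries (−1.28 to −1.67). The DN difference of Cish was 0.665 without GFI1 KO replicate 1, and its call was lost without WT replicate 2 (1.10).

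Cish, Socs1 and Socs2 were called higher in GFI1 KO γδ T cells of both organs. Cish measured 13.1 and 12.2 CPM in WT and 85.4 and 71.7 CPM in GFI1 KO spleen, and 9.18 and 10.3 against 84.2 and 103 CPM in the thymus. Socs2 measured 8.62 and 8.22 against 99.5 and 118 CPM in the spleen and 1.44 and 2.01 against 45.1 and 48.5 CPM in the thymus. Socs3 measured 30.9 and 36.7 CPM in WT and 3.65 and 3.37 CPM in GFI1 KO spleen, but 11.1 and 12.9 against 17.1 and 21.7 CPM in the thymus, and its difference between the organs was itself called (log2 difference −3.997 ± 0.225, adjusted p = 1.04e-05). In splenic cells with Trgv6, 4 of 17 genes tested were higher and 5 lower, where 22.1% of all genes were called, with Cish (2.30), Socs2 (1.52), Socs3 (−3.45), Bcl2 (−2.82) and Il15 (−1.52) past a difference of 1. The Bcl2 call there was lost without WT replicate 2 (−2.52) and where 2 Trgv6 UMIs were asked for (−2.52).

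Of the 6728 genes averaging 20 CPM or more, those most alike to each receptor over the 12 libraries by Pearson's r of log2(CPM + 1) were Parp14 (0.98), Lncpint (0.96) and Rapgef4 (0.96) for Il7r, Gsr (0.96), Sod2 (0.96) and Eif1a (0.95) for Il2ra, and Ly9 (0.99), Ifi206 (0.99) and Gimap4 (0.98) for Il2rb. They were Vasp (0.99), Vsir (0.99) and Phf11b (0.99) for Il2rg, Stat6 (0.99), Madd (0.98) and Rab21 (0.98) for Il4ra, Tm9sf2 (0.89), Rapgef4 (0.86) and Klrc2 (0.86) for Il15ra, and Ptpn12 (0.97), Bach2 (0.96) and Fam241a (0.95) for Il21r. The 12 libraries form 6 groups, so these values mostly describe group differences.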

How the data were processed

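The authors deposited UMI counts per gene and cell for every demultiplexed library, made with 10x 3′ chemistry and, per the submitters' processing notes, Cell Ranger 8.0.1 and GRCm39. The authors assigned cells to a genotype by hashtag. No doublet caller was run here. Genotypes follow the hashtag names in the labels. The members and lists were chosen with earlier results of these data known. Cells with at least 500 UMIs, 200 genes and at most 20% mitochondrial UMIs were kept (96911 of 97404). A total of 9538 ribosomal, Gm-numbered and mitochondrial genes were left out of the tests. Counts were summed per library and tested with edgeR 4.0.16 (quasi-likelihood, robust, TMM, filterByExpr, 1 fit of 12 libraries, or of the class sums), with Benjamini-Hochberg adjustment over all genes at 0.05. edgeR was tested on counts simulated with the same spread for every gene and no pool effect, a simpler setting than these data. The thinned share was compared with a random draw from the Il7r counts of a single library. Libraries of 1 pool share a droplet run per the labels, which pairs WT with KO. Their deviations correlated at 0.29 (spleen), 0.0629 (thymic γδ T) and 0.176 (DN). Shares were computed as the expected share at 2000 UMIs per cell. Barcodes were never shared within a pool. Named were all members, pathway genes past the test with an absolute log2 difference of at least 1 (at most 6 per comparison), and the 3 genes most alike to each member. Alternatives were the pool as a block, RLE normalization, DESeq2 1.42.0, no gene or cell filter, the 5% deepest cells left out, all genes kept, other library sets, other class and thinning thresholds, and each library left out. Tcrg-C1 of the γδ T marker list was not found under that name. Some genes of the marker and pathway lists, and the cell classes set by them, are not reported here.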

Additional observations from a re-analysis of the deposited data

Results flagged for a closer look

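The genotype difference of 7 pairings of receptor and population pair differed by the test of the difference itself. Between splenic and thymic γδ T cells the KO-minus-WT difference was lower in the spleen for Il7r (−2.78 log2), Il2rb (−1.68), Il4ra (−1.50) and Il15ra (−1.38), a comparison in which sex of the animals differed along with organ. In cells with Ddx3y and no Xist these receptors were also lower in GFI1 KO in the spleen and higher in thymic γδ T cells. That difference was not tested. For Il7r the libraries of the spleen lay lower in GFI1 KO (614 and 641 against 933 and 987 CPM) and those of the thymus higher (959 and 1129 against 229.7 and 246 CPM). Between thymic γδ T cells and DN cells the difference was higher in the γδ T cells for Il2ra (3.01) and lower for Il2rb (−2.27) and Il21r (−1.27). The γδT17 marker Maf was higher in both GFI1 KO libraries of every population (1365 and 1425 against 120 and 98.7 CPM in the spleen), and the part of such cells in these differences was not tested.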

How the results depend on the processing

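Of 1470 values of a receptor under an alternative, 1338 kept their direction and side of the threshold, 59 lost a call, 40 gained one and 33 changed sign. No value that was called changed sign. The number of receptors called moved by more than 1.5 times as follows. For spleen against thymus in KO it went from 1 to 2 with the replicate block, RLE normalization, DESeq2 or no filter on low counts and to 3 with only the libraries compared, and lay between 0 and 1 without 1 library. For splenic Trgv6-positive cells it went from 5 to 3 without the 5% deepest cells or with 2 Trgv6 UMIs (3 to 5 without 1 library). With the replicate block, it went from 0 to 4 between Trgv6 classes of KO spleen and from 3 to 5 in Ptcra-positive DN cells (1 to 5 without 1 library). Without 1 library it lay between 3 and 5 for thymic γδ T minus DN, 3 and 6 for thymic Trgv6-negative cells, 1 and 2 for splenic against thymic Trgv6-positive KO cells and 3 and 5 between Trgv6 classes of WT spleen. For spleen against thymus the pools share a number but no run, and the block moved Il21r past the threshold in KO (−0.40, adjusted p = 0.0472). Calls changed by the block between genotypes stand beside their results, and it changed no other.

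Values that changed sign were none of them called. Without the 5% deepest cells the sign turned for Il2ra in spleen minus thymus (−0.263), Il4ra in thymic γδ T minus DN (−0.008), Il21r in KO thymic γδ T against DN (−0.162) and Il2ra in KO Trgv6-positive spleen against thymus (−0.041). Il4ra of splenic Trgv6-positive cells was 0.213 with 2 Trgv6 UMIs. Il2rg between Trgv6 classes of KO spleen was 0.004 with RLE normalization, 0.004 with DESeq2, 0.018 with no filter on low counts and 0.011 without the 5% deepest cells. Without 1 library, ranges across zero were −0.130 to 0.620 for Il2ra in spleen minus thymus, −0.391 to 0.134 for Il2rg and −0.443 to 0.787 for Il4ra in thymic γδ T minus DN, and −0.211 to 0.554 for Il2ra in WT spleen against thymus. In KO they were −0.027 to 0.253 for Il2rb and −0.340 to 0.006 for Il15ra in spleen against thymus, and −0.098 to 0.174 for Il15ra and −0.117 to 0.190 for Il21r in thymic γδ T against DN. In Trgv6-positive cells they were −0.237 to 0.006 for splenic Il4ra, and −0.067 to 0.102 for Il2ra and −0.215 to 0.079 for Il2rb in KO spleen against thymus. Between Trgv6 classes of KO spleen they were −0.044 to 0.047 for Il2rg (0.033 without the Trgv6-positive cells of replicate 1), −0.228 to 0.032 for Il4ra and −0.137 to 0.422 for Il15ra (−0.007 without those cells), and in Ptcra-positive DN cells −0.220 to 0.021 for Il2ra and −0.781 to 0.010 for Il4ra.

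Counts over all genes moved by more than 1.5 times in DN cells from 3427 to 2077 with only the libraries compared, in Trgv6-positive cells with 2 UMIs asked for from 2653 to 1463 (spleen) and from 4965 to 2175 (thymus), between Trgv6 classes of KO spleen from 1 to 1078 (block), 62 (DESeq2), 206 (no filter) and 16 to 116 (without 1 class sum), and in Ptcra-positive cells from 1736 to 3909 (block). Leaving out 1 library took them as low as 1678 in DN cells, 900 of 1736 in Ptcra-positive cells, 2637 of 4410 and 1887 of 3261 for the differences between populations, 3597 of 5455 for KO spleen against thymus, 4660 of 7045 for WT thymic γδ T against DN, 1744 in splenic Trgv6-positive and 2082 of 5777 in thymic Trgv6-negative cells, 2050 of 3548 for KO Trgv6-positive spleen against thymus and 1383 of 2269 between Trgv6 classes of WT spleen. Causes were not tested. Il4ra and Il15ra rest on few UMIs (87 to 201 per DN library for Il4ra), which limits what their differences can show.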
